A study of Mus musculus with 4 samples.

Results

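The cells described here are endothelial cells of the mouse descending aorta. They carry RNA of the kallikrein gene Klk10, the stathmin gene Stmn2 or the adrenergic receptor gene Adra2a, alone or in combination. They were chosen by measured counts of unique molecular identifiers (UMIs). Cells needed 200 or more genes and no more than 10% of UMIs from mitochondrial genes. Such a cell counted as endothelial with at least 3 UMIs of Pecam1 and Cdh5 together, 0 of Ptprc and fewer than 15 of Dcn, Col1a2 and Col3a1. It was gate-positive with at least 3 UMIs summed over Stmn2, Adra2a and Klk10, the gate genes, and gate-negative with 0. This gave 1397 gate-positive cells, 771 in library descending a and 626 in descending b. They came out of 2567 endothelial cells in these libraries and 14831 filtered cells in all 4 libraries. The gate-negative cells numbered 301 and 263.

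Single-cell RNA of C57BL/6 mouse aorta was counted in 4 libraries. Descending a and b hold intimal cells of aged descending aorta, pooled from 6 mice each, and the arch library holds intimal cells of young aortic arch, pooled from 8 mice. The remaining library holds cells of aged adventitia, with no number of mice given. Endothelium was freed with trypsin and scraped off with actinomycin D present, and no genetic change or drug separates the groups. The sex is not given, and nothing states that a and b come from separate sets of mice, so a p-value here reflects how far these libraries vary, and that variation could be technical. The arch library is young and the descending ones aged, so region, age and library cannot be told apart.

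Klk10 encodes a secreted serine protease of the kallikrein family, Stmn2 encodes a stathmin that binds tubulin and is best known from neurons, and Adra2a encodes an alpha-2 adrenergic receptor that couples to inhibitory G proteins. Endothelium of the aorta is exposed to fast, mostly one-way flow in the descending part and to disturbed flow along the inner curve of the arch, and it changes its gene expression with flow. Cldn5 encodes a tight junction protein, and Adh7 encodes an alcohol dehydrogenase that can also oxidize retinol.

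Promoters are shown for the label genes with an entry in the RefSeq table for GRCm38.p6, because Klk10 and Adra2a chose the cells and Cldn5 and Adh7 differ with the gate. Each sequence runs 5′ to 3′ on the gene's own strand, which is the plus strand for all of them, from 250 bases before to 50 after the start that RefSeq gives. They lie at chr7:43780804-43781103 for Klk10, chr19:54045009-54045308 for Adra2a, chr16:18776597-18776896 for Cldn5 and chr3:138217523-138217822 for Adh7. Capitals mark CACCC or its reverse complement GGGTG, letters bound by Krüppel-like factors, and CCGGAA or its reverse complement TTCCGG, letters bound by ETS factors.
Klk10: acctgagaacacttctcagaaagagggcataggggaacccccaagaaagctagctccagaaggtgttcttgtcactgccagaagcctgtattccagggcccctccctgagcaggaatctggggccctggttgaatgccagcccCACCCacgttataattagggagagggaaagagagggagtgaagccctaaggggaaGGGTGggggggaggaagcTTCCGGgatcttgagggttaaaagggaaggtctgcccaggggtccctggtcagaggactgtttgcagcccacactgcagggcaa
Adra2a: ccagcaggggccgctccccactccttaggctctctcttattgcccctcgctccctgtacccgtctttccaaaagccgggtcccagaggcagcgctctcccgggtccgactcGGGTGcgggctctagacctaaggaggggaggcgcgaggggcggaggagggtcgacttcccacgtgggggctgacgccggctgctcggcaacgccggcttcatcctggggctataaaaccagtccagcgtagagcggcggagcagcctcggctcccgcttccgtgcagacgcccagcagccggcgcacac
Cldn5: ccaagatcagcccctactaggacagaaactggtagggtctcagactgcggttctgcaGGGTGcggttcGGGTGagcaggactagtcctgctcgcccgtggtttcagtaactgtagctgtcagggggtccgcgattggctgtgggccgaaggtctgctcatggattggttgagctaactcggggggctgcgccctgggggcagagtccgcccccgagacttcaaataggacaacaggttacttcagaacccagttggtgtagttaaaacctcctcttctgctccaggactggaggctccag
Adh7: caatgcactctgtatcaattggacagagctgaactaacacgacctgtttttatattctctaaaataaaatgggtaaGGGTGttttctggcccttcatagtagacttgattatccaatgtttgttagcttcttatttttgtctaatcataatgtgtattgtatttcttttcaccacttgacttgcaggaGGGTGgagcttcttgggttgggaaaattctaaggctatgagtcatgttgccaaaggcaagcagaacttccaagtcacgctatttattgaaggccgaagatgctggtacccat
The CACCC letters occur 2 times for Klk10, Cldn5 and Adh7 and 1 time for Adra2a, and the ETS letters occur 1 time, for Klk10. Over 27025 mouse promoters of the same length, 56.7% hold CACCC and 15.2% hold CCGGAA on either strand, and the motifs share no base. Stmn2 is named without a sequence.

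How many cells reach the gate depends on sequencing depth. The libraries hold 13715023 UMIs (descending a), 13181305 (descending b), 18624525 (arch) and 29370967 (adventitia). Gate-positive cells were 55.4% of endothelial cells in descending a (95% exact Clopper-Pearson interval 52.8 to 58.1) and 53.2% in descending b (50.3 to 56.1), intervals that cover counting error only. Their median depths were 7447 and 7257 UMIs, against 3387 and 3309 UMIs in gate-negative cells. With every cell of at least 2000 UMIs thinned to 2000, the shares were 27.2% and 28.7%. Of the thinned cells 62.4% and 63.7% kept at least 1 gate UMI. Gate-positive cells therefore were compared with gate-negative cells of similar depth, pair by pair within each library. The matched cells had median depths of 4029.5 and 3934 UMIs on the gate-positive side, against 3609 and 3507 UMIs on the gate-negative side. The median share of mitochondrial UMIs was 3.26% and 2.86% in gate-positive cells, against 3.66% and 3.21% in gate-negative cells. Descending a and b shared 7 barcodes, and 0 of them were gate-positive cells in both.

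Detection of the gate genes in gate-positive cells is given as description, because their UMIs chose the cells. All 3 were detected in 41.2% of gate-positive cells of descending a and 41.5% of those in descending b, and Stmn2 with Klk10 but no Adra2a in 31.1% and 25.9%. Klk10 had a UMI in 89.0% and 84.8% of gate-positive cells, Stmn2 in 82.2% and 80.2%, and Adra2a in 54.5% and 57.7%. Klk10 alone accounted for 80 and 73 cells, Stmn2 alone for 31 and 30, and Adra2a alone for 9 and 15. Gate-positive cells held 2797 of the 2940 Stmn2 UMIs in endothelium of descending a and 2404 of 2524 in descending b. For Klk10 they held 3933 of 4158 and 3168 of 3372, and for Adra2a 1348 of 1420 and 1393 of 1471. Other endothelial cells have fewer than 3 gate UMIs by the rule, so high shares follow from it. As a check of background RNA, fibroblasts thinned to 2000 UMIs had a UMI of a gate gene in 1.32% to 5.94% of cells, at median depths of 4002.5 and 3724 UMIs. All endothelial cells thinned likewise had one in 17.9% to 43.0%, at median depths of 5536 and 5313 UMIs. The fibroblasts had at least 15 UMIs of Dcn, Col1a2 and Col3a1 and 0 of Pecam1 and Cdh5. Leaving out cells with endothelial UMIs can make this background look lower. Macrophages, with 0 UMIs of Pecam1 and Cdh5 as well, had a UMI of a gate gene in 0% to 16.7%, but numbered only 12 and 6 cells.

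Each gate gene was also higher in cells chosen without it. Stmn2 stood at 413 and 454 CPM (a UMI count over the total of its sum, scaled to a common total) in cells of descending a and b with at least 2 UMIs of Adra2a and Klk10, against 124 and 139.8 CPM in depth-matched endothelial cells with 0 of these. The log2 fold change was 1.69 ± 0.09 (SE), with an edgeR adjusted p of 1.29e-81 and n = 2 libraries. Adra2a stood at 182 and 228 CPM in cells chosen by Stmn2 and Klk10, against 52.3 and 86.8 CPM, a log2 fold change of 1.54 ± 0.11 (edgeR adjusted p = 4.17e-38). Klk10 stood at 622 and 601 CPM in cells chosen by Stmn2 and Adra2a, against 249.9 and 284 CPM, a log2 fold change of 1.19 ± 0.08 (edgeR adjusted p = 1.28e-10). In each case both libraries lay above both comparison values. The gate genes were grouped with earlier results of these data known, so their joint rise is given as description. These p-values lean on the spread pooled over genes more than on the 2 libraries. The adrenergic receptor gene lies at GRCm38 chromosome 19, 54044151 to 54048982 in GENCODE, which places its start upstream of the RefSeq start, so the stretch printed above lies inside that span.

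The same gate marked fewer Adra2a cells in the arch and few cells in the adventitia. In the arch 543 of 1011 endothelial cells passed, or 53.7%, and 19.3% after thinning to 2000 UMIs. Adra2a was detected in 27.6% of the arch cells that passed, and all 3 genes in 21.5%, while Stmn2 with Klk10 made up 60.8%. In the adventitia 22 of 249 endothelial cells passed, all of them by Stmn2 alone, with 0 UMIs of Adra2a and Klk10. Adh7 likewise had 0 UMIs in these 22 adventitial cells after thinning, which allows a share of cells with an Adh7 UMI of up to 13.6% (3 cells) and covers counting error only.

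Cells near the threshold are given as description. Cldn5 stood at 1038 and 950 CPM in cells with 3 gate UMIs, just inside the gate, against 923 and 1028 CPM in cells with 2, just outside it. Adh7 stood at 577 and 676 CPM with 3 gate UMIs, against 535 and 613 CPM with 2. Emcn, which encodes the sialomucin endomucin, stood at 233 and 149.8 CPM with 3, against 174 and 90.5 CPM with 2. Cldn5 differed in opposite ways in the 2 libraries, and Adh7 and Emcn were higher just inside the gate in both, for Emcn against the direction of the gate comparison.

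**Figure D1:**
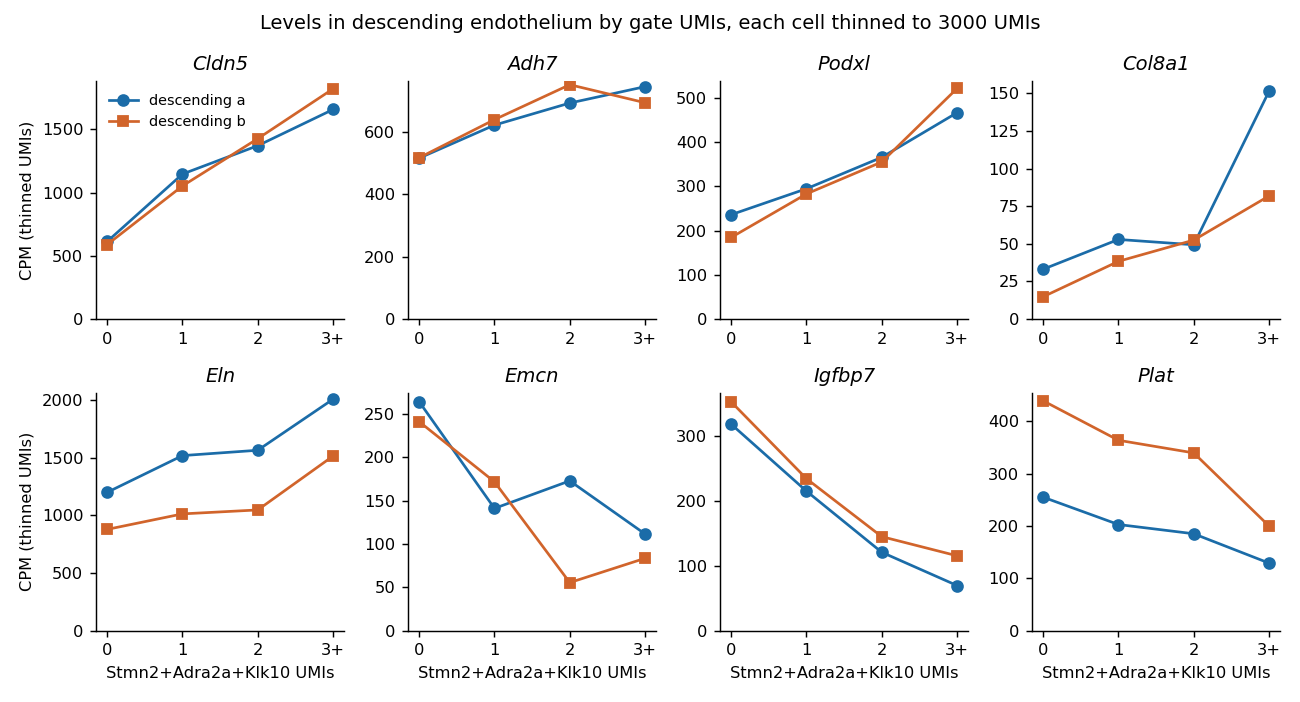
Level (CPM of thinned UMIs, vertical axes from 0) of 8 genes in endothelial cells of descending a (circles) and b (squares). Horizontal axes give the gate UMIs left after thinning (0, 1, 2, 3 or more). Cells with at least 3000 UMIs were thinned to 3000, and others were left out. Cldn5 climbs from 613 and 589 CPM with 0 gate UMIs to 1656 and 1820 CPM with 3 or more, while Igfbp7 runs the other way, from 318 and 353 to 69.8 and 116 CPM.

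In the graded plot every cell was thinned to the same number of UMIs, but depth before thinning still differed between bins. Its median was 6036 and 5237 UMIs in descending a and b with 0 gate UMIs, against 7073.5 and 7327 UMIs with 3 or more. The macrophage gene Lyz2 stood at 313 and 263 CPM with 0 gate UMIs, against 60.9 and 60.4 CPM with 3 or more. Cldn5 stood at 613, 1146, 1370 and 1656 CPM in descending a for 0, 1, 2 and 3 or more gate UMIs, and at 589, 1053, 1426 and 1820 CPM in descending b. Podxl, which encodes the apical sialomucin podocalyxin, ran from 236 to 466 CPM in descending a and from 184.5 to 521 CPM in descending b over the same bins. Both genes stepped up at every bin in both libraries. Igfbp7, an insulin-like growth factor binding protein of the vessel wall, stood at 318, 215, 121 and 69.8 CPM in descending a, and at 353, 234, 145 and 116 CPM in descending b. Emcn was not lower at every step, with 172.8 CPM at 2 gate UMIs and 141 CPM at 1 in descending a. Adh7 had its highest bin at 3 or more gate UMIs in descending a, at 744 CPM, and at 2 in descending b, at 750.0 CPM.

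Gate-positive cells were then compared with gate-negative cells over depth-matched pairs, 272 in descending a and 245 in descending b, with UMIs summed per library and side. They carried more RNA of the tight junction gene Cldn5 and of vessel-wall matrix genes such as Col8a1, Eln and Fbln5. Some paralogs of the gate genes, Stmn3, Adra2c, Klk13 and Klk11, were also higher. Gate-positive cells carried less RNA of Igfbp7, Emcn, Plat and 6 of 15 genes of a disturbed flow list. Of 8989 genes tested, 252 were higher (2.8%) and 240 lower (2.67%) by edgeR's quasi-likelihood test with the library as a block and Benjamini-Hochberg adjustment. All 252 higher genes had that direction in both libraries, as had 238 of the 240 lower genes. The fit used these same libraries and favours genes on which they agree, so this is not a separate test. The fit has 1 residual degree of freedom, and DESeq2 called 50 higher and 46 lower, all of them among these genes. The gate genes and the genes of the endothelial rule were left out of the test.

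RNA of other cells sat in a few gate-negative cells. All 7 macrophage markers tested were lower in gate-positive cells (median log2 −2.00, against −0.00 over all genes), with Ptprc at 0 on every side, as the rule requires. The 10 markers summed to 183 and 160.4 CPM in gate-positive cells, against 917 and 556 CPM in gate-negative cells. Of the macrophage UMIs of 8 such genes in gate-negative cells, 1050 of 1300 in descending a and 402 of 589 in descending b came from 5 cells each. The red cell and platelet markers summed to 1206 and 1950 CPM in gate-positive cells, against 20298 and 715 CPM in gate-negative cells. Smooth muscle markers summed to 120.1 and 73.9 CPM in gate-positive cells, against 172 and 389 CPM in gate-negative cells. Fibroblast markers summed to 741 and 927 CPM in gate-positive cells, against 1157 and 1416 CPM in gate-negative cells. The fit was repeated without cells with many UMIs of macrophage, lymphocyte, smooth muscle or red cell genes, a choice made after these values were seen. It left 258 and 237 pairs and called 322 genes higher (3.64%) and 289 lower (3.27%). These include 244 of the 252 higher and 183 of the 240 lower genes, and of the macrophage markers still tested, 0 of 5 passed (median log2 0.07). A stricter removal, of every cell with over 1 macrophage, any lymphocyte or over 2 smooth muscle UMIs, called 40 higher (0.521%) and 42 lower genes (0.547%), of which 39 and 41 were among the calls above.

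Cldn5 and Adh7, the label genes outside the gate, were both higher in gate-positive cells. Cldn5 (GRCm38 chromosome 16) stood at 1552 and 1695 CPM in gate-positive cells, against 475 and 543 CPM in gate-negative cells. The log2 fold change was 1.67 ± 0.11 (edgeR adjusted p = 2.79e-10), and the libraries did not overlap. Adh7 (GRCm38 chromosome 3, 138217760 to 138233382) stood at 807 and 707 CPM in gate-positive cells, against 489 and 474 CPM in gate-negative cells (log2 0.65 ± 0.11, edgeR adjusted p = 0.000319). The label markers were present in these cells. Thinned to 2000 UMIs, 81.2% and 80.7% of gate-positive cells had a Cldn5 UMI, against 43.0% and 47.3% of gate-negative cells and 15.8% and 11.4% of fibroblasts. The median depths behind these shares were 7481 and 7379 UMIs, 3567 and 3694.5 UMIs, and 4002.5 and 3724 UMIs. Adh7 was seen in 67.1% and 64.1% of gate-positive cells, against 48.0% and 50.4% of gate-negative cells and 14.5% and 14.6% of fibroblasts.

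**Figure D2:**
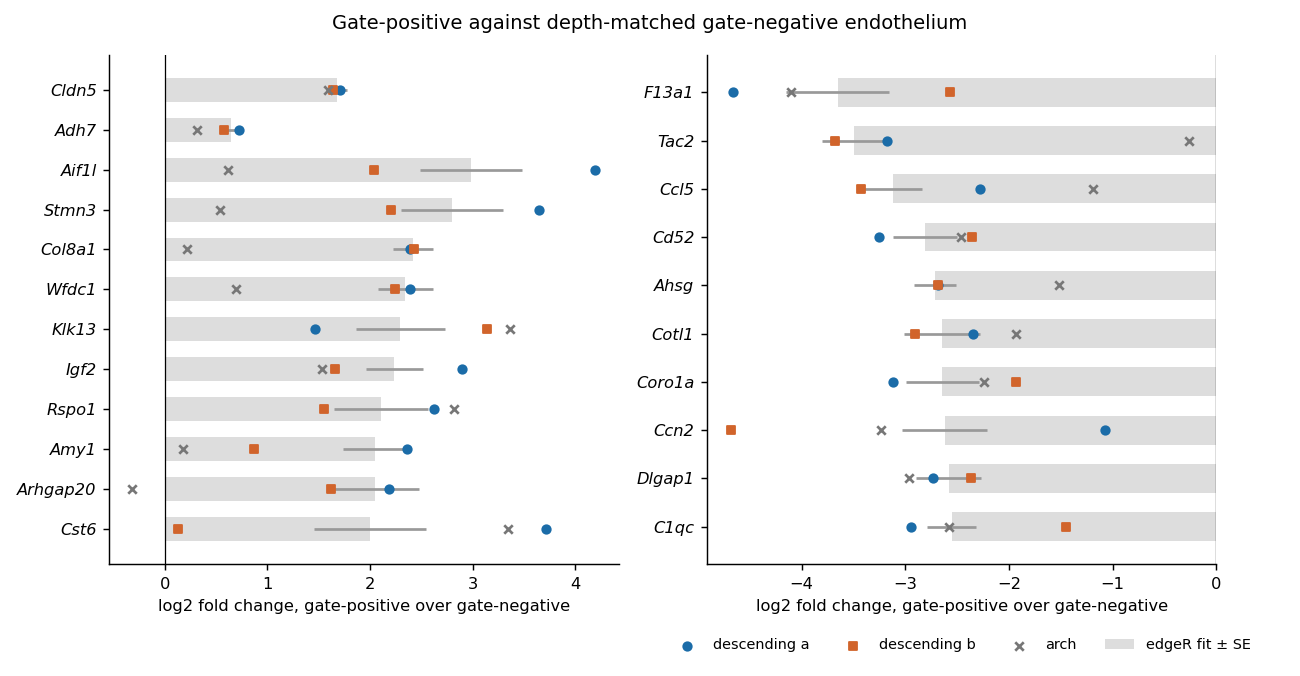
Log2 fold change of gate-positive over depth-matched gate-negative endothelium for Cldn5, Adh7 and the 10 genes with the largest rises (left) and the 10 with the largest falls (right). Circles, squares and crosses are descending a, descending b and arch, each computed with a small prior count, and grey bars are the edgeR fit over descending a and b with its SE. Col8a1 reached 2.42 in the fit and lay near 0 in the arch, and Cst6 lay near 0 in descending b.

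The largest rises held matrix, growth factor and paralog genes. Col8a1, a chain of the short-chain collagen VIII of vessel walls, stood at 129 and 75.1 CPM in gate-positive cells, against 24.3 and 13.6 CPM in gate-negative cells (log2 2.42 ± 0.19, edgeR adjusted p = 1.6e-08). Igf2, the insulin-like growth factor II gene, stood at 57.0 and 56.3 CPM in gate-positive cells, against 7.28 and 17.5 CPM in gate-negative cells (log2 2.24 ± 0.28, edgeR adjusted p = 8.67e-06). Wfdc1, which encodes a secreted protein with a four-disulfide core, stood at 44.2 and 61.4 CPM in gate-positive cells, against 8.08 and 12.7 CPM. Both libraries were higher on the gate-positive side for each. Aif1l, an actin-binding gene, led by fold (2.98), but stood at only 22.1 and 21.3 CPM in gate-positive cells, against 0.808 and 4.87 CPM. The others by the rule were Stmn3 (2.80), Klk13 (2.29), the Wnt enhancer Rspo1 (2.104), the amylase gene Amy1 (2.05), the GTPase regulator Arhgap20 (2.05) and the cystatin Cst6 (2.00). Amy1 stood at 64.1 and 12.8 CPM in gate-positive cells, against 12.1 and 6.82 CPM. Cst6 stood at 26.3 and 8.53 CPM in gate-positive cells, against 1.62 and 7.79 CPM, so its change rested on descending a.

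The largest falls mixed endothelial and leukocyte genes. Tac2, which encodes neurokinin B in the mouse, stood at 4.98 and 4.27 CPM in gate-positive cells, against 48.5 and 59.4 CPM in gate-negative cells (log2 −3.49 ± 0.31, edgeR adjusted p = 7.49e-08). Ahsg, the fetuin-A gene, stood at 12.8 and 17.9 CPM in gate-positive cells, against 84.9 and 118 CPM (log2 −2.72 ± 0.20, edgeR adjusted p = 4.22e-09). Dlgap1, known as a synaptic scaffold gene, fell by 2.58 on the log2 scale, and Ccn2, a matricellular gene that responds to disturbed flow, by 2.62. Ccn2 stood at 12.1 and 2.56 CPM in gate-positive cells, against 25.9 and 76.0 CPM, so the size differed between libraries. Without cells with many other-type UMIs Tac2 stood at −3.43, Ahsg at −2.64, Dlgap1 at −2.65 and Ccn2 at −2.63, all past the threshold. The other 6 were F13a1 (−3.65), Ccl5 (−3.12), Cd52 (−2.81), Cotl1 (−2.64), Coro1a (−2.64) and C1qc (−2.55), genes known from leukocytes. In that narrower set Ccl5 stood at 0.09 and C1qc at −0.56, neither past the threshold, and F13a1, Cd52, Cotl1 and Coro1a fell below the count filter.

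Of 19 tested genes of the extracellular matrix list 7 were higher, 0 were lower and 12 did not pass (median log2 0.37, against −0.00 over all genes). Besides Col8a1 these were the calcification inhibitor Mgp (0.68), the elastin gene Eln (0.74), the elastic fibre gene Fbln5 (0.79), the protease inhibitor Timp3 (0.61), the crosslinking enzyme Lox (0.69) and the fibronectin gene Fn1 (0.47). Mgp stood at 7830 and 8098 CPM in gate-positive cells, against 4573 and 5357 CPM in gate-negative cells. Eln stood at 1950 and 1336 CPM in gate-positive cells, against 1183 and 785 CPM, and Fbln5 at 619 and 491 CPM, against 399 and 252 CPM. For each gene both libraries were higher on the gate-positive side. With the arch in place of descending a or of descending b, Fbln5 stood at −0.078 and −0.188, and Fn1 at −0.20 and 0.10, so these calls rested on the descending libraries. After the stricter removal of other-type cells 4 of 19 were higher, Mgp, Col8a1, Eln and Timp3.

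Of 15 tested genes of the disturbed flow list 6 were lower and 2 higher (median −0.29). The lower ones were Ccn2, the matricellular gene Ccn1 (−0.74), the endothelin gene Edn1 (−0.59), Bmp4 (−0.67), the thrombospondin gene Thbs1 (−1.03) and the adhesion gene Icam1 (−0.56), and the higher ones were Timp3 and the transglutaminase gene Tgm2 (0.66). Ccn1 stood at 609.6 and 505 CPM in gate-positive cells, against 914 and 943 CPM in gate-negative cells. Of 16 genes of the laminar flow list 4 were higher and 2 lower (median 0.24). Podxl (1.10), the nitric oxide synthase Nos3 (0.65), the semaphorin Sema7a (1.98) and the connexin gene Gja5 (0.36) were higher, and the prostaglandin transporter Slco2a1 (−0.68) and the water channel Aqp1 (−0.48) lower. Klf2 and Klf4, transcription factors induced by laminar flow, were at 0.28 and 0.30 and did not pass (edgeR adjusted p = 0.0659 and 0.118). Klf2 stood at 2811 and 2690 CPM in gate-positive cells, against 2468 and 2065 CPM in gate-negative cells. Without cells with many other-type UMIs the disturbed flow list had 7 of 14 lower and 2 higher. The laminar flow list then had 7 of 15 higher and 5 lower, with Klf2 and Klf4 among the calls. After the stricter removal of other-type cells the disturbed flow list had 3 of 13 lower (Edn1, Ccn1 and Bmp4) and 1 higher (Timp3). With that removal the laminar flow list had 1 of 15 higher (Podxl) and 0 lower.

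In the arterial identity and Notch list 5 of 16 were higher and 2 lower (median 0.24), with Sox17 (0.69), the Notch ligand Dll1 (0.98) and Notch4 (0.56) higher, and Nrp1 (−1.05) and the chemokine gene Cxcl12 (−0.9995) lower. Nrp1, a semaphorin and growth factor receptor, stood at 411 and 321 CPM in gate-positive cells, against 869 and 644 CPM. The Notch ligand Dll4 did not pass (−0.16, edgeR adjusted p = 0.84). In the junction list 2 of 13 were higher and 0 lower, Cldn5 and the cadherin Cdh13 (0.84), with a median of 0.17. Pan-endothelial genes outside the rule had 3 of 15 higher and 2 lower (median 0.07). The growth factor receptor gene Flt1 (1.54) rose and Emcn (−1.28) and the TGF-beta co-receptor Eng (−0.59) fell. In the venous and capillary list 2 of 6 were lower and 0 higher (median −0.57), the fatty acid genes Fabp4 (−0.79) and Cd36 (−2.28). Cd36 stood at 2.14 and 3.41 CPM in gate-positive cells, against 17.8 and 8.77 CPM in gate-negative cells. Without cells with many other-type UMIs the venous and capillary list had 2 of 4 lower, Fabp4 and Plvap, and Cd36 was not among the calls. After the stricter removal of other-type cells 0 of 4 passed in it. With that removal the arterial list kept only Mgp, higher, and Nrp1, lower, of 16. The junction list kept Cldn5 and Cdh13, and the pan-endothelial list only Emcn, lower, of 15.

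Clot, retinoid and antigen presentation genes moved in both directions or down. In the clot control list 5 of 17 were higher and 5 lower (median 0.24). The lower ones included the plasminogen activator gene Plat (−1.05), the protein C receptor Procr (−0.78) and Thbs1, and the higher ones the ectonucleotidase Nt5e (1.08) and Vwf (0.39). Plat stood at 135 and 208 CPM in gate-positive cells, against 251 and 469 CPM in gate-negative cells. In the retinoid and alcohol list, with 2 higher and 2 lower of 8 (median 0.02), Adh7 and the retinoic acid hydroxylase Cyp26b1 (1.31) rose while Adh1 (−0.63) and Aldh1a1 (−1.37) fell. In the interferon and MHC list 3 of 14 fell and 0 rose (median −0.13): Cd74 (−1.78), H2-Aa (−1.25) and H2-Ab1 (−1.11). Without cells with many other-type UMIs Cd74 stood at −1.43 and H2-Aa at −1.19, and macrophage markers did not pass. Of 9 genes for senescence and cell cycle 2 rose and 3 fell, with Igfbp7 at −2.02 ± 0.10 (edgeR adjusted p = 9.63e-12). Igfbp7 stood at 89.0 and 82.8 CPM in gate-positive cells, against 333 and 368 CPM in gate-negative cells.

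Paralogs and chromosomal neighbours of the gate genes were examined next. Stmn3 stood at 14.95 and 23.9 CPM in gate-positive cells, against 0.808 and 4.87 CPM in gate-negative cells (log2 2.80 ± 0.50, edgeR adjusted p = 0.000731). Adra2c, another alpha-2 receptor, stood at 24.2 and 39.3 CPM in gate-positive cells, against 7.28 and 13.6 CPM (log2 1.60 ± 0.30, edgeR adjusted p = 0.00104). Klk10 (GRCm38 chromosome 7, 43781035 to 43785410) lies in the kallikrein cluster, between Klk11, which ends 1.77 kb upstream, and Klk9. Klk13 (2.29) and Klk11 (1.30 ± 0.25, edgeR adjusted p = 0.00163) rose on the gate-positive side. Klk8, a neuropsin gene 12.2 kb downstream, did not pass (0.10, edgeR adjusted p = 0.684), with 205 and 245 CPM in gate-positive cells, against 204 and 212 CPM in gate-negative cells. Klk12, Klk6 and Klk5 had at most 1 UMI in all gate-positive cells of a library. In the list of stathmins and microtubule regulators 1 of 6 tested genes was higher and 0 lower (median −0.17). The adrenergic list had 1 of 2 higher and 0 lower, and the kallikrein and serpin list 3 of 7 higher and 1 lower. After the stricter removal of other-type cells 0 of 4, 0 of 1 and 0 of 6 passed in these lists. Serpina1b (1.84), Serpina1d (1.33) and Serpina1e (1.46) also rose, but these near-identical copies share reads and their counts are uncertain. Counting by strand is not stated, so antisense reads cannot be told apart.

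**Figure D3:**
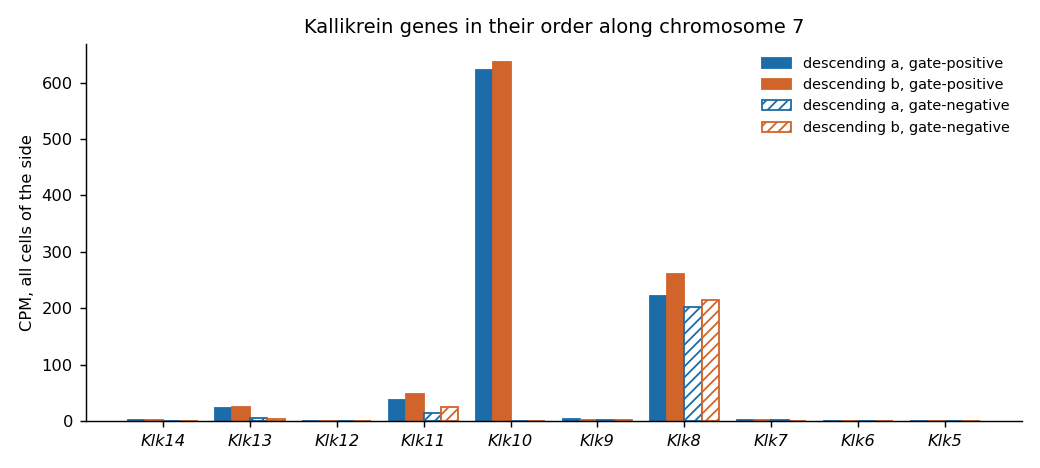
CPM of 10 kallikrein genes in their order along chromosome 7, over all gate-positive (filled) and all gate-negative (hatched) cells of descending a (blue) and b (orange), with no depth matching. Klk10 is 0 in gate-negative cells by the rule, and Klk8 is similar on both sides while Klk11 and Klk13 are higher in gate-positive cells.

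The direction of these differences was also seen in the arch, a library not used to choose them. Among the 252 higher genes 219 were higher in arch gate-positive cells too (86.9%, against 49.7% of all genes tested), and among the 240 lower genes 211 were lower (87.9%, against 50.3%). Over 2-fold differences in the arch were seen in 54 of the 252 (3.64% of all genes) and 102 of the 240 (4.11%). Of 194 matched arch gate-negative cells 47 had many other-type UMIs, against 3 of the gate-positive cells. Red cell and platelet markers summed to 1599 CPM in arch gate-positive cells, against 64044 CPM in arch gate-negative cells. How far this RNA sets the direction of the lower genes in the arch was not tested. Cldn5 stood at 915 CPM in arch gate-positive cells, against 304 CPM in arch gate-negative cells. In other genes the size differed between arch and descending aorta. By an edgeR interaction term, arch minus descending, the log2 fold change of 48 of 8827 genes was higher in the arch (0.544%) and that of 46 lower (0.521%). The arch arm is 1 library that is assumed to vary like the others, the fit has 1 residual degree of freedom, and DESeq2 called 1 and 2 genes and the fit with no filter 2 and 2. Fbln5 and Aqp1 were called by all 3 of these fits. Fbln5 stood at 369.5 CPM in arch gate-positive cells, against 749 CPM in arch gate-negative cells, an effect that differed from the descending one by −1.80 ± 0.14 on the log2 scale (edgeR adjusted p = 2.27e-18). Aqp1 stood at 1125 CPM in arch gate-positive cells, against 523 CPM, and differed by 1.58 ± 0.14 (edgeR adjusted p = 4.14e-15).

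Clusters made without the gate genes held unequal shares of gate-positive cells. Cluster 2 was 84.4% and 87.0% gate-positive and 4.44% and 2.68% gate-negative in descending a and b, with Col8a1, Coch, Fbln5 and Adh7 among its leading genes. Cluster 3, led by Thbs1, G0s2, Frzb and Edn1, was 19.6% and 19.6% gate-positive and 48.5% and 50.9% gate-negative. Edn1 was among the leading genes of cluster 2 as well. Clusters 1 and 4 lay between, at 42.7% and 48.6%, and at 59.3% and 56.0% gate-positive. Gate-positive cells were thus spread over several clusters: cluster 1 held 27.1% and 41.2% of them, cluster 2 59.1% and 41.5%, cluster 3 5.97% and 7.19% and cluster 4 7.004% and 9.74%. Median depths were 6595.5 and 6550.0 UMIs in cluster 2 and 4518 and 4874 in cluster 3. With cells thinned to 2000 UMIs the gate-positive shares were 49.9% and 59.3% in cluster 2 and 5.24% and 5.07% in cluster 3. The leading genes come from the clustered cells and are description.

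**Figure D4:**
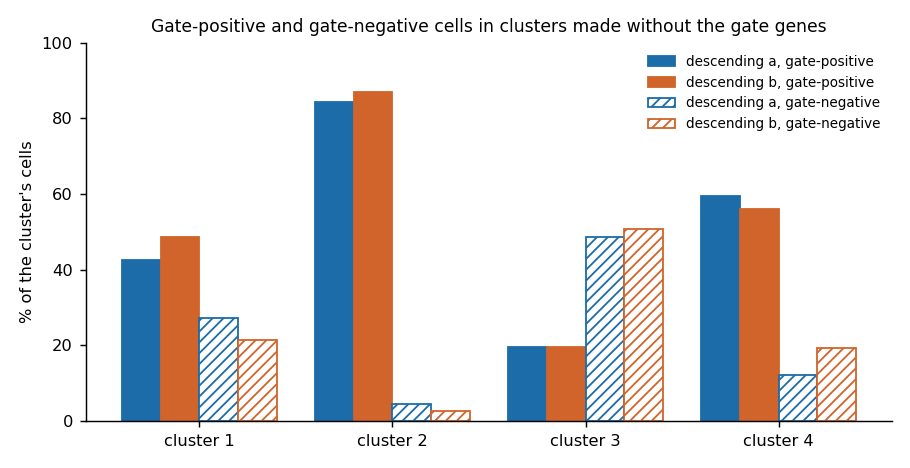
Share of each cluster's cells that were gate-positive (filled) or gate-negative (hatched) in descending a (blue) and b (orange), for the 4 larger clusters made without the gate genes. Cluster 2 is 84.4% and 87.0% gate-positive, and cluster 3 is 48.5% and 50.9% gate-negative.

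The gate-positive cells differed among themselves by Adra2a. Cells with at least 2 Adra2a UMIs were compared with gate-positive cells with 0, a comparison chosen after the data were seen, over 242 and 218 depth-matched pairs. To pass the gate, Adra2a-0 cells needed at least 3 UMIs of Stmn2 and Klk10, which Adra2a-positive cells need not have. How far this difference in the rule shaped the calls was not tested. Adra2a-positive cells carried more RNA of 9 of 18 Hox genes, of Coch, Sost and Nt5e, of Adh7 and of the elastic fibre genes Fbln5 and Eln. They carried less of Aqp1, Plat, Fabp4, Gpr182 and Klk8. Of 9870 genes tested 321 were higher (3.25%) and 299 lower (3.03%) by the same edgeR test. DESeq2 called 33 higher and 40 lower, and with 1 descending library replaced by the arch the counts were 79 and 72, and 67 and 68. The spread was pooled over all genes in this fit, so the p-values do not rest on a gene's own spread. Macrophage markers did not pass here (0 of 5), while 4 of 5 red cell and platelet markers were higher. These summed to 1129 and 2037 CPM in Adra2a-positive cells, against 1410 and 593 CPM in Adra2a-0 cells, so they were higher in descending b and lower in descending a. Without cells with many other-type UMIs 333 genes were higher (3.38%) and 298 lower (3.03%), including 306 and 282 of the calls above, and Hba-a1 stood at −0.10.

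Hox genes, transcription factor genes that record position along the body axis, were in part higher in Adra2a-positive cells. Of 18 tested, 9 were higher, 0 were lower and 9 did not pass, with a median log2 of 0.51, against 0.00 over all genes. Hoxb9 stood at 74.5 and 65.7 CPM in Adra2a-positive cells, against 36.1 and 34.2 CPM in Adra2a-0 cells (log2 1.00 ± 0.15, edgeR adjusted p = 9.1e-09). Hoxd4 stood at 55.2 and 39.1 CPM in Adra2a-positive cells, against 31.8 and 16.2 CPM (log2 0.95 ± 0.18, edgeR adjusted p = 1.4e-05). Hoxd8 stood at 23.4 and 27.1 CPM, against 12.3 and 6.38 CPM (log2 1.37 ± 0.27, edgeR adjusted p = 1.9e-05). In these genes both libraries were higher on the Adra2a-positive side. The others that passed were Hoxb8 (0.73), Hoxb7 (0.73), Hoxb6 (0.64), Hoxb4 (0.57), Hoxa9 (0.44) and Hoxa7 (0.41). Gate-positive against gate-negative cells gave 3 of 18 higher, Hoxa9 (0.85), Hoxd4 (0.87) and Hoxb7 (0.64), and 0 lower (median 0.29).

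**Figure D5:**
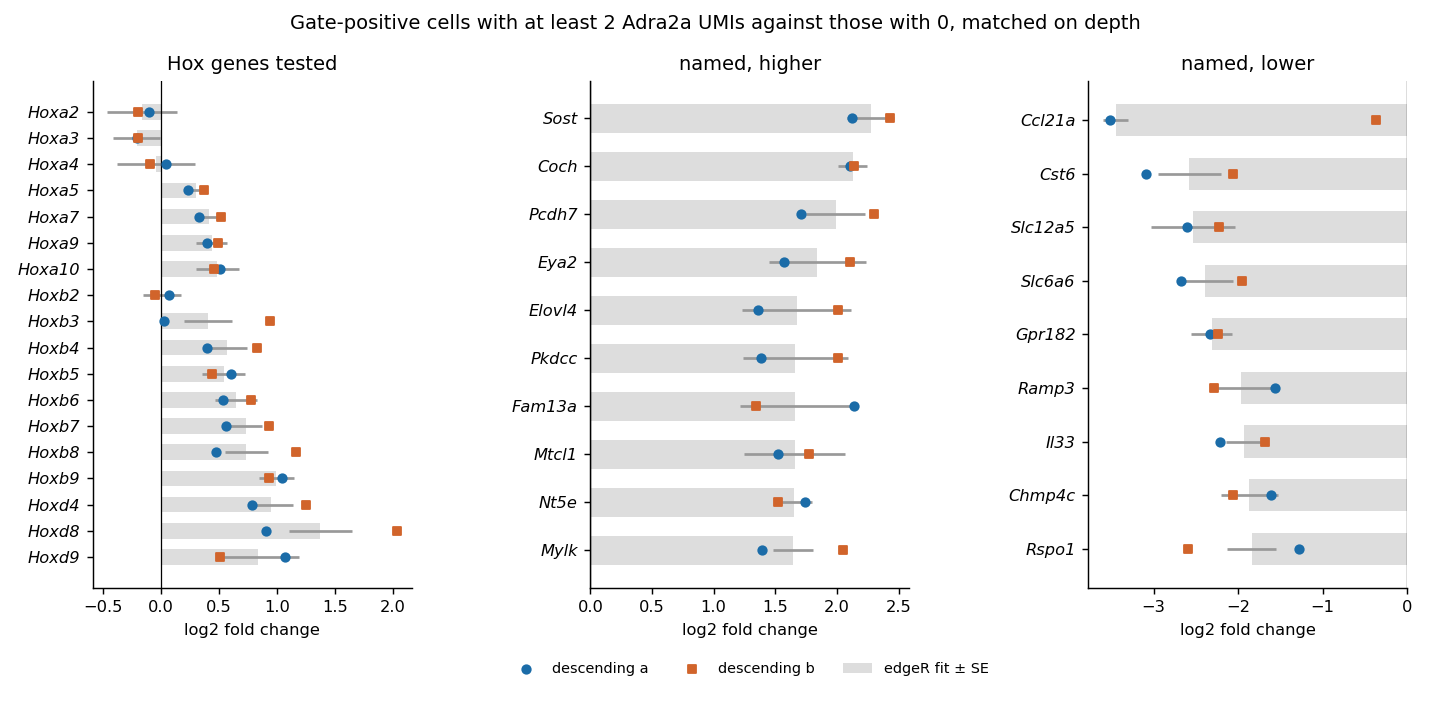
Log2 fold change of gate-positive cells with at least 2 Adra2a UMIs over gate-positive cells with 0, matched on depth, for the 18 Hox genes tested (left), the 10 genes with the largest rises (middle) and 9 of the 10 with the largest falls (right). Circles and squares are descending a and b, computed with a small prior count, and grey bars are the edgeR fit with its SE. Coch and Sost are near 2 in both libraries, and Ccl21a is far lower in descending a but near 0 in descending b.

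Secreted and adhesion genes led the rises. Coch, which encodes the extracellular protein cochlin, stood at 162 and 216 CPM in Adra2a-positive cells, against 37.5 and 48.7 CPM in Adra2a-0 cells (log2 2.13 ± 0.12, edgeR adjusted p = 1.21e-69). Sost, the gene of the Wnt inhibitor sclerostin, stood at 67.1 and 70.0 CPM, against 15.2 and 12.8 CPM in Adra2a-0 cells (log2 2.27 ± 0.19, edgeR adjusted p = 3.97e-29). Nt5e, which makes adenosine outside the cell, stood at 99.3 and 87.4 CPM in Adra2a-positive cells, against 29.4 and 30.2 CPM (log2 1.65 ± 0.15). The libraries did not overlap in these genes. The others by the rule were the protocadherin Pcdh7 (1.99), the coactivator Eya2 (1.84), the fatty acid elongase Elovl4 (1.67), Pkdcc (1.66), Fam13a (1.66), the microtubule gene Mtcl1 (1.66) and the myosin light chain kinase gene Mylk (1.64). Matrix genes had 8 of 19 higher and 2 lower (median 0.20), with Fbln5 at 627 and 757 CPM in Adra2a-positive cells, against 372 and 310 CPM (log2 1.01 ± 0.08, edgeR adjusted p = 4.45e-36). Adh7 stood at 981 and 896 CPM in Adra2a-positive cells, against 457 and 465 CPM (log2 1.02 ± 0.07, edgeR adjusted p = 1.52e-43). Cldn5 did not pass, at 1306 and 1756 CPM in Adra2a-positive cells, against 1713 and 1419 CPM, and the libraries went opposite ways.

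The falls included transporters, receptors and a chemokine. Gpr182, an atypical chemokine receptor gene, stood at 6.90 and 10.9 CPM in Adra2a-positive cells, against 36.1 and 52.2 CPM in Adra2a-0 cells (log2 −2.31 ± 0.24, edgeR adjusted p = 1.45e-19). Cst6 (−2.58), the chloride transporter Slc12a5 (−2.53), the taurine transporter Slc6a6 (−2.39), the receptor partner Ramp3 (−1.97), the alarmin Il33 (−1.93), Chmp4c (−1.87) and Rspo1 (−1.84) were also lower by the rule, as was Ccl21a. Ccl21a, a chemokine of lymphatic endothelium, had the largest fall (−3.45), but it came from descending a, with 91 UMIs in Adra2a-positive cells against 1011 in Adra2a-0 cells. In descending b there were 4 against 5. Without the lymphatic-like cells it stood at −0.15 and did not pass. Aqp1 stood at 82.8 and 272 CPM in Adra2a-positive cells, against 334 and 495 CPM (log2 −1.35 ± 0.09). Fabp4 (−1.66) and Plat (−1.38) fell as well.

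For several genes the value with the gate and the value with Adra2a had opposite signs. These comparisons share cells, and Adra2a-0 cells pass the gate only with at least 3 UMIs of Stmn2 and Klk10, which Adra2a-positive cells need not have, so opposite signs can come from the rule and are given as description. Klk10 stood at 615 and 563 CPM in Adra2a-positive cells, against 576 and 627 CPM in Adra2a-0 cells, and Stmn2 at 461 and 568 CPM, against 377 and 328 CPM. Edn1 was at −0.59 with the gate and at 1.10 with Adra2a, Bmp4 at −0.67 and 0.63, and Adh1 at −0.63 and 0.56. Serpina1b was at 1.84 with the gate and −1.76 with Adra2a, Stmn3 at 2.80 and −0.94, and Cst6 at 2.00 and −2.58. Klk8 was at 0.10, not past the threshold, with the gate and at −1.03 with Adra2a. The laminar flow list had 2 of 16 higher and 8 lower with Adra2a (median −0.24), with Klf2 at −0.34, and the disturbed flow list 5 of 15 higher and 3 lower (median 0.18). The immediate early genes, which also respond to tissue handling, had 7 of 16 lower and 0 higher (median −0.22), with Jun at −0.39 and Junb at −0.37. In the arch, over 70 pairs, 257 of the 321 higher genes were higher too (80.1%, against 53.5% of all genes) and 196 of the 299 lower genes lower (65.6%, against 46.4%).

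Splits of the gate-positive cells on Stmn2 and Klk10 were also chosen after the data were seen. Their call counts cannot be set against those of the Adra2a split. The numbers of pairs differed, and the Klk10 fit did not fully pool its spread over genes. Cells with at least 2 Stmn2 UMIs against cells with 0, over 137 and 124 pairs, had 140 of 8625 genes higher (1.62%) and 160 lower (1.86%) by edgeR, in a fit whose spread was likewise pooled over all genes and which was not repeated with another tool. Cldn5 (0.88), Adh7 (0.62), Col8a1 (1.90) and Igf2 (2.14) were higher and Emcn (−0.65) lower in Stmn2-positive cells. The split on Klk10, over 84 and 94 pairs, had 5 of 7197 genes higher (0.0695%) and 14 lower (0.195%). The 5 were the lipid raft gene Mal (1.57), Aqp1 (0.9987), the lipase gene Mgll (0.96), Adam15 (0.68) and Ly6a (0.45), named after their values were seen. Coch (−2.56), Edn1 (−1.42) and Fbln5 (−1.16) were among the 14. Cells with 0 Klk10 UMIs pass the gate only with at least 3 UMIs of Stmn2 and Adra2a, so the Klk10 split is not independent of the Adra2a split. Cells with 0 Stmn2 UMIs likewise pass only with at least 3 UMIs of Adra2a and Klk10, so the sides of the Stmn2 split also differ by the rule. Cldn5 (0.043), Adh7 (−0.60) and Col8a1 (0.50) did not pass in the Klk10 split.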

How the data were processed

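What the authors deposited are whole UMI counts, by gene and barcode, for 4 libraries, made with Cell Ranger 2.1.2 on mm10 per the submitters' processing notes. Each listed 27998 genes, of which 27645 had a symbol. The annotation release is not given in the sources used here, and coordinates are from GENCODE M21 (GRCm38). Cells were filtered and gated as the report states, and gate-positive cells were matched 1 to 1 with gate-negative cells on total UMIs (0.05 on the log10 scale). UMIs were summed per library and side and tested with edgeR 4.0.16 in R 4.3.3 (TMM, filterByExpr, quasi-likelihood test, library as a block, 4 sums), with Benjamini-Hochberg adjustment over all genes tested and a threshold of 0.05. The 9 genes of the rule were left out. DESeq2 1.42.0 was an alternative. Gene levels of matched sides are CPM on the TMM scale, and sums of marker lists, thinned levels and kallikrein levels are CPM of the raw totals; per-library log2 values have a prior count of 0.5. Doublets were not removed in the main comparison. An alternative left out the highest Scrublet scores, at 0.8% per 1000 barcodes (scanpy 1.11.5). Clusters came from 2000 variable genes, 20 components, 15 neighbours and a Leiden resolution of 0.5. Cells with many other-type UMIs had over 10 UMIs of 8 macrophage genes, at least 2 of lymphocyte genes, over 10 of smooth muscle genes or over 100 of haemoglobin genes. Named genes were the 10 with the largest rise and fall past the threshold, with at least 50 UMIs and the same direction in both libraries, the label genes, and of each of 27 lists its 2 to 4 genes lowest in adjusted p; further genes were named after their values were seen. A gene that the rule names for the Adra2a split is not reported here. The cells, lists and comparisons were chosen with earlier results of these data known. The fit was tested on simulated data with known changes. It recovered 14% of 1.5-fold, 52% of 2-fold, 92% of 4-fold and 100% of 8-fold changes, with 0 false calls. A gene that did not pass can therefore still differ. The simulated counts had the same spread for every gene and no RNA of other cells, and changes were placed only in better counted genes. The number of false calls in the real data therefore cannot be read from them. Other alternatives changed the gates, filters and libraries. Lymphocyte markers (3 and 8 UMIs in gate-positive cells, against 25 and 21 in gate-negative cells) and mesothelial markers (1 and 0, against 3 and 0) were too low to test.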

Additional observations from a re-analysis of the deposited data

Results flagged for a closer look

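The difference between gate-positive and gate-negative cells was compared between the arch and the descending libraries by an edgeR interaction term, given as arch minus descending. It rested on 1 young arch library, so that region, age and library cannot be told apart. The single arch library is assumed to vary like the others, and of the genes below DESeq2 called only Fbln5 and Eln and the fit with no filter only Fbln5 and Edn1. It was lower in the arch, by log2 difference, for Col8a1 (−2.20), Edn1 (−1.76), Fbln5 (−1.80), Eln (−1.03), Fn1 (−1.02), Sox17 (−0.86) and Cdkn1a (−1.05). In gate-positive over gate-negative cells Col8a1 stood at 2.42 in the descending aorta and 0.21 in the arch, Fbln5 at 0.79 in the descending aorta and −1.02 in the arch, and Eln at 0.74 in the descending aorta and −0.28 in the arch. It was higher in the arch for Plat (1.49), Ahsg (1.19), Igfbp7 (0.68) and Slco2a1 (0.55). The fall of genes of other cells was larger in the arch for Hbb-bt (−3.33), Pf4 (−1.69) and Lyz2 (−0.79). Those are markers of red cells, platelets and macrophages, and the macrophage markers summed to 327 CPM in arch gate-positive cells and 1702 CPM in arch gate-negative cells. In the adventitial library, which the comparisons did not use, 22 endothelial cells passed the gate, all by Stmn2.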

How the results depend on the processing

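Counts of genes higher and lower in gate-positive cells, 252 and 240, were 50 and 46 with DESeq2, 420 and 388 without depth matching, 152 and 144 with cells thinned to 3000 UMIs, and 40 and 42 without cells with any other-type UMIs. With no replicate block they were 79 and 82. The block is the library, whose 2 sides were sums of the same library. Adra2a-split counts, 321 and 299, were 33 and 40 with DESeq2, 12 and 16 with no replicate block, 207 and 159 without other-type cells, and 67 to 79 and 68 to 72 with 1 library left out. Interaction counts, 48 and 46, were 1 and 2 with DESeq2 and 2 and 2 with no filter. No paired analysis between regions was possible because the arch has 1 library. The gate-positive shares moved to 27.2% and 28.7% after thinning, 64.1% and 63.0% with a gate of 2 UMIs and 41.6% and 41.2% with a gate of 5. Held-out Stmn2, Adra2a and Klk10 kept direction and threshold under their alternatives. Single genes that reversed were C1qa (0.012) and C1qb (0.060) without other-type cells, Ccl5 (0.087), C1qa (0.089), Pf4 (0.074) and Tyrobp (0.29) without cells with many other-type UMIs, and Tyrobp (0.13) with at least 6 endothelial UMIs. With 1 descending library left out and the arch in its place, Fbln5 ran from −0.188 to −0.078 and Fn1 from −0.20 to 0.10. In the Adra2a split Hba-a1 (−0.10) and Hbb-bs (−0.035) reversed without cells with many other-type UMIs, and with 1 library left out Hba-a1 ran from −0.22 to 1.13, Hba-a2 from −0.13 to 1.1997 and Hbb-bs from −0.15 to 0.84. The cause was not tested. The alternatives on other-type cells and the splits were chosen after seeing the data. With 2 libraries and 1 residual degree of freedom, calls lean on the spread pooled over genes, and genes with few UMIs are limited by depth.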
